A study of Homo sapiens with 26 samples.

Results

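The genes described here encode respiratory complex I, the NADH dehydrogenase of the mitochondrial inner membrane. They are the gene symbols that begin with NDUF and hold no hyphen, which gave 47 of the 26485 genes in the count tables. Of these, 37 encode subunits of the complex, 7 are the assembly factors NDUFAF1 to NDUFAF7, and 1 is the pseudogene NDUFAF4P1. The other 2 are NDUFA4, now assigned to cytochrome c oxidase (complex IV), and its relative NDUFA4L2. Another 4 symbols with a hyphen (NDUFA6-AS1, NDUFB2-AS1, NDUFC2-KCTD14 and NDUFV2-AS1) name antisense or readthrough transcripts and were left out. The subunits encoded by the mitochondrial genome were not analysed here.

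Complex I takes electrons from NADH through a flavin and a chain of iron-sulfur clusters to ubiquinone, and pumps protons across the inner membrane. The electron path lies in a matrix arm, whose core subunits (7 genes) included NDUFV1, NDUFV2, NDUFS1, NDUFS3, NDUFS7 and NDUFS8. Accessory subunits surround this core (9 genes) and the mitochondrially encoded proton pumps of the membrane arm (20 genes), and NDUFAB1, the mitochondrial acyl carrier protein, is found in both arms. Assembly factors bring the modules of the complex together and are absent from the finished enzyme. In neuroblastoma, as in other tumours, the respiratory chain supplies ATP and regenerates NAD+ for biosynthesis.

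RNA had been sequenced from KELLY, a human neuroblastoma cell line that carries extra copies of MYCN. Each of 3 lines carried a lentiviral vector inducible by doxycycline, either empty (EV, F1HUTG in the labels) or with a short hairpin RNA against the co-repressor gene RUNX1T1 (sh4 or shAMB), and was kept for 72 h with doxycycline or DMSO, with 3 libraries in each of the 6 groups. The vector also carries a green fluorescent marker. A further 8 libraries came from subcutaneous KELLY tumours in female NOD SCID gamma mice, immune-deficient hosts. Of these, 4 were labelled control, with control food, and 4 RUNX1T1 KO, with doxycycline food, and the labels do not say which hairpin the tumours carried. Doxycycline and the KO label thus cannot be told apart in the tumours. The paper reports that the hairpin in the tumours was also used in cell culture. It was based on an Ambion sequence, for which the name shAMB may stand. The tumours and the shAMB line may therefore share a hairpin, so that their results need not be independent of it. The labels do not say that replicates were separate cultures, so that p-values in cell culture measure the spread between these libraries, which may be technical.

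The labels were checked against RUNX1T1 itself. Its RNA did not fall past the threshold of an adjusted p-value under 0.05 with doxycycline in the sh4 line (log2 fold change -0.11, edgeR adjusted p 0.118) or the shAMB line (0.06, adjusted p 0.378), nor in tumours labelled KO (-0.23, adjusted p 0.229), so that groups are called by their labels. The paper reports that RUNX1T1 protein fell with doxycycline in KELLY cells carrying either of its hairpins. It also reports loss of RUNX1T1 staining in KELLY tumours after the knockdown. The data used here hold RNA alone, so that the protein level in these groups was not tested. No library had any of 11 neuroblastoma markers, such as HAND2 and GATA3, at 0. Of 10 markers of endothelium, fibroblasts and blood cells, COL1A2 and ITGAM were at 0 in most cell culture libraries, and the summed level of all 10 ran from 29.4 to 79.3 CPM (read counts relative to the normalised library total) in cell culture, 6.96 to 15.6 CPM in control tumours and 10.9 to 15.5 CPM in KO tumours. These are counts assigned to human genes, most of which came from COL1A1 and COL3A1. The labels name no step that removed mouse reads, and whether host reads were among the tumour counts was not tested. Libraries held 35115908 to 54736731 counts in cell culture and 47346057 to 62378057 in the tumours. Small RNA genes took 0.737% to 1.57% of the counts in cell culture and 7.08% to 18.3% in the tumours.

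Libraries of the same group differed in these genes. For the 11 subunits with an exon GC content of at least 55%, 1 library was the lowest or the highest of its group in 11 of 11 in 6 of the 8 groups. It was the lowest in EV with DMSO (replicate 1), sh4 with DMSO (replicate 3), shAMB with DMSO (replicate 2), the control tumours (replicate 1) and the KO tumours (replicate 4). It was the highest in sh4 with DMSO (replicate 1), sh4 with doxycycline (replicate 3) and shAMB with DMSO (replicate 3). In sh4 with doxycycline that library had a summed level of 348.6 CPM against 188.9 and 205.5 CPM in the other two. Of the 26 other subunits, control tumour replicate 2, which held the highest small RNA share (18.3% of counts), was the lowest of its group in 25, and the third shAMB library with doxycycline in 24. Results that turn on 1 library are given with and without it.

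In cell culture the subunits spanned a wide range of levels per length. On the TPM scale, which the authors had scaled for gene length, mean levels over the 18 libraries ran from 5.951 (NDUFS7) to 1653 TPM (NDUFS5), with a median of 174 TPM over the 37 subunits. NDUFS5, a membrane arm subunit on the side of the intermembrane space, was at 1520 to 1776 TPM, above every library of the next subunit, and made up 18.2% of the summed subunit TPM in the EV line with DMSO. The next, NDUFB2 (mean 545.5 TPM) and NDUFA1 (mean 496.6 TPM), both of the membrane arm, overlapped between libraries. At the low end NDUFS7, the core subunit that holds the terminal iron-sulfur cluster and transfers electrons to ubiquinone, was at 1.53 to 13.95 TPM and overlapped NDUFB7 at 8.11 to 49.27 TPM. NDUFV3, an accessory subunit at the NADH end, came next at 20.26 to 38.66 TPM and overlapped NDUFB7 too.

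On the same scale the 7 assembly factors ranged from 12.57 TPM for NDUFAF3 to 139.4 TPM for NDUFAF2, with a median of 44.26 TPM. NDUFA4 was at 401.4 TPM. NDUFA4L2, a gene known for its induction by hypoxia, was at 0.054 TPM, with 0 to 4 counts in a cell culture library and 7 to 182 counts in a tumour, and NDUFAF4P1 was likewise too low to be tested in cell culture, so that 45 of the 47 members were tested there and 47 of 47 in the tumours. Across the 37 subunits the log2 TPM fell with GC content (Spearman's rho -0.49, Pearson's r -0.53), a description over genes that share the same libraries. Some GC-rich genes had few counts, with 18 to 213 counts for NDUFS7, 57 to 429 for NDUFB7 and 52 to 435 for NDUFAF3 in a cell culture library.

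**Figure D1:**
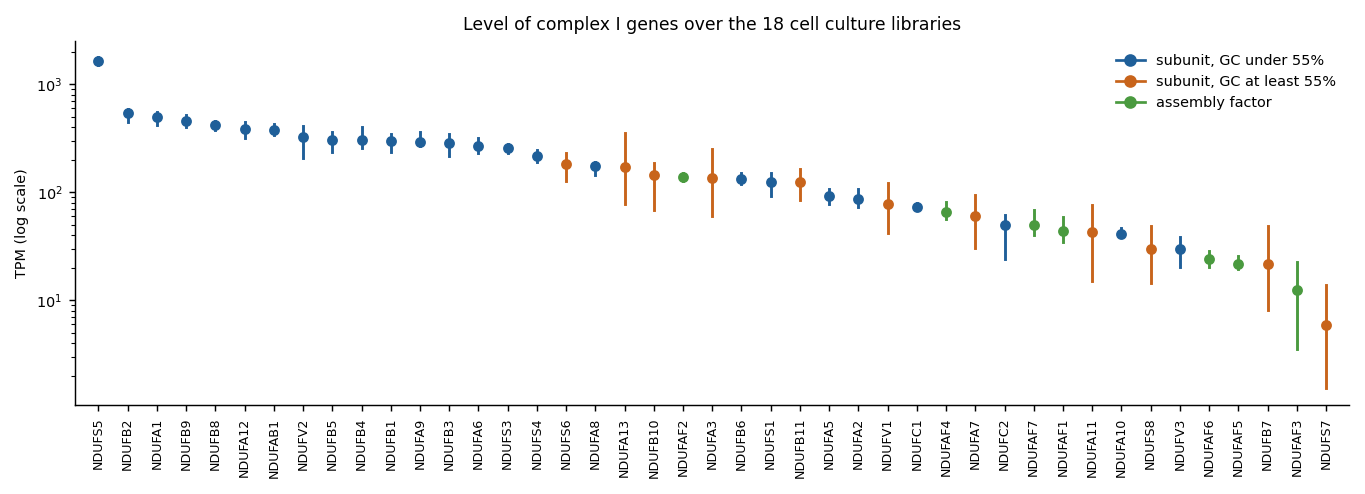
Level of the complex I subunits and assembly factors (1 subunit is not drawn) over the 18 cell culture libraries, in TPM on a log axis, with the mean as a point, the lowest and highest library as a bar, and the genes ordered by their mean. NDUFS5 lies above the other subunits at 1520 to 1776 TPM and NDUFS7 at the foot at 1.53 to 13.95 TPM; NDUFAF3 is the lowest assembly factor, at a mean of 12.57 TPM.

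Some of these levels are uncertain because reads can be shared. Exons of NDUFS7 and NDUFB2 lie under exons of a gene on the opposite strand over 51.4% and 35.1% of their length, and the sources do not say whether counting used the strand. On the same strand, other genes cover 33.8% of NDUFB8, 32.5% of NDUFA7, 28.4% of NDUFV2, 21.0% of NDUFA13 and 18.6% of NDUFC2, the last with a readthrough gene. NDUFA5 and NDUFB4 have 12 annotated pseudogenes each, NDUFS5 has 6 and NDUFA3 has 5.

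Promoter sequences are shown for 4 genes on which the results below turn. NDUFAF3 and NDUFB10 fell in both hairpin lines and in the tumours, NDUFA8 did so as well and was the one such subunit whose promoter held the core motif of NRF1, a transcription factor of many respiratory genes, and NDUFA9 went opposite ways in the hairpin lines. Each is the RefSeq sequence (GRCh38.p14) from 250 bases before to 50 bases after the start of the gene, 5′ to 3′ on the strand of the gene, at chr3:49020202-49020501 (plus) for NDUFAF3, chr16:1959288-1959587 (plus) for NDUFB10, chr9:122159730-122160029 (minus) for NDUFA8 and chr12:4648864-4649163 (plus) for NDUFA9. Capitals mark the NRF1 core, which is GCGCA, any base, then GCGC, on either strand, and overlapping matches in NDUFA8 form 1 run of capitals.

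NDUFAF3: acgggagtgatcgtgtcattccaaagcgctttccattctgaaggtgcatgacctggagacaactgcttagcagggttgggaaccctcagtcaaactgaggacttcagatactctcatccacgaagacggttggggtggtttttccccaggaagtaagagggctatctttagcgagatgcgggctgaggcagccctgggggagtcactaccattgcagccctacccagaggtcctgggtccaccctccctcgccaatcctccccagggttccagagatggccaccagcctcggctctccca
NDUFB10: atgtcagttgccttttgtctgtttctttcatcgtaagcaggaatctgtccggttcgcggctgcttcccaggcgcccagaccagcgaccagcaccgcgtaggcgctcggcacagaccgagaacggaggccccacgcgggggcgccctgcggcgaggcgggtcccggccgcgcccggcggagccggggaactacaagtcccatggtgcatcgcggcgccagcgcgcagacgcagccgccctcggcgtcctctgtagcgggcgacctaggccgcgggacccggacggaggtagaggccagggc
NDUFA8: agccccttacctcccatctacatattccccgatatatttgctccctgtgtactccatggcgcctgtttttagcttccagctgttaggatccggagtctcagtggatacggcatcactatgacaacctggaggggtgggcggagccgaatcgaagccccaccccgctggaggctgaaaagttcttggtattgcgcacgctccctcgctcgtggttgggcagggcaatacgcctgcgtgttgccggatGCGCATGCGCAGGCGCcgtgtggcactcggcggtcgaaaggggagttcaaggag
NDUFA9: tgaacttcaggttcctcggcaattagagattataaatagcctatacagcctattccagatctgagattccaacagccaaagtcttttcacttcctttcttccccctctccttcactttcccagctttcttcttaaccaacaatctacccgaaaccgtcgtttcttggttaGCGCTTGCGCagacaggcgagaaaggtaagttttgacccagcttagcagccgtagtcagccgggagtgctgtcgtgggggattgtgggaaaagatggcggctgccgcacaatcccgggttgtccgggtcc

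The NRF1 core was in 6 of the 32 subunit promoters found in the reference (18.8%) and in 1 of 6 assembly factor promoters (16.7%), against 6.28% of all promoters and 8.57% of those of protein-coding genes. The ETS motif CCGGAAGT, bound by GABP, was in 2 of 32 subunit promoters (6.25%) against 4.44% of all promoters and 6.19% of protein-coding ones, and the E-box CACGTG, a site of MYC proteins, in 3 of 32 (9.38%) against 7.43% and 8.88%. Both strands were read, and matches of different motifs did not overlap in any promoter of these genes. Of the 8 subunits that fell in both hairpin lines and in the tumours, 6 had a promoter in the reference, of which 1 held the NRF1 core and 0 held the ETS motif or the E-box in these windows.

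Doxycycline alone, in the line with the empty vector, changed none of these genes past the threshold by edgeR. Of the 37 subunits 0 passed, with 1 at an unadjusted p under 0.05 and 0 by DESeq2, and of the 7 assembly factors 0 passed, with 1 at an unadjusted p under 0.05. Over all 14905 genes tested 0.0939% were called, and 879 were at an unadjusted p under 0.05. The median log2 fold change was 0.07 for the subunits, -0.05 for the assembly factors and 0.01 over all 14905 genes. NDUFC2 was at 66.93, 62.55 and 67.19 CPM with DMSO and 64.19, 63.32 and 66.79 CPM with doxycycline, for example, and its groups overlapped. The summed level of the subunits was 3148 ± 80.3 CPM and 3210 ± 25.9 CPM (SD, n = 3 each).

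In the sh4 line 18 of 37 complex I subunits fell with doxycycline (48.6%) and none rose, where 18% of all genes were called lower and 22.9% higher. The median log2 fold change was -0.34 for the subunits and -0.0046 over all genes. With the library scaling used throughout (TMM, which sets most genes level between libraries) a log2 fold change below 0 was found for 37 of 37 subunits. Once GC content and length trends were removed, 16 were lower and 1 higher, with a median of -0.15. Of all genes 26.2% were then lower and 26.1% higher, with a median of -0.0008. On log2 TPM as deposited, an alternative chosen after seeing the data, 27 of 37 were below 0, and 10 were called lower and 2 higher. The median was -0.16 where that of all genes was 0.12, and 9.3% of all genes were lower and 38.9% higher. In 16 subunits all doxycycline libraries lay below all DMSO libraries, as did 17.9% of all genes. The summed subunit level was 3207 ± 63.4 CPM with DMSO and 2712 ± 30 CPM with doxycycline. In these bulk libraries fewer cells of a kind and less RNA per cell cannot be told apart.

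NDUFC2, an accessory subunit of the membrane arm (chr11:78068297-78079862, minus strand, GRCh38), fell the furthest of the subunits in the sh4 line. It was at 67.21, 66.6 and 63.55 CPM with DMSO and at 28.57, 25.71 and 26.01 CPM with doxycycline. The groups lay far apart, and the level with doxycycline was 0.407 times that with DMSO (log2 fold change -1.30, SE 0.0585, adjusted p 1.39e-10). In the shAMB line it moved less, from 63.13, 72.09 and 66.13 CPM to 51.92, 50.05 and 47.55 CPM (log2 fold change -0.43, adjusted p 8.35e-06). The sh4 effect was lower than the shAMB effect by a log2 difference of -0.87 (SE 0.0813, adjusted p 3.17e-07), and the fall in sh4 was -1.33 once GC content and length trends were removed.

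By module, 3 of 7 core subunits of the matrix arm, 4 of its 9 accessory subunits and 11 of 20 membrane arm subunits, NDUFC2 among them, were lower in the sh4 line, and NDUFAB1 did not pass. In the core, NDUFS3, of the part that passes electrons to ubiquinone, went from 107.7, 113.9 and 106.2 CPM with DMSO to 85.95, 86.82 and 86.77 CPM with doxycycline (log2 fold change -0.34, adjusted p 0.000211). The groups did not overlap. NDUFS1, which carries several iron-sulfur clusters, went from 182.8, 196 and 201.2 CPM to 173.1, 164 and 140.6 CPM (-0.28, adjusted p 0.00451). The core subunits NDUFV1 (-0.35, adjusted p 0.246), NDUFV2 (-0.12, adjusted p 0.198), NDUFS7 (-0.93, adjusted p 0.204) and NDUFS8 (-0.64, adjusted p 0.09) did not pass. At the NADH end, the accessory subunit NDUFV3 was at 19.01, 18.39 and 18.21 CPM and then at 12.51, 12.16 and 14.08 CPM, with no overlap (-0.52, adjusted p 1.98e-05).

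NDUFS6, an accessory subunit with a zinc site, was at 43.2, 38.48 and 33.07 CPM with DMSO and at 24.86, 20.73 and 33 CPM with doxycycline, where the third doxycycline library came just under the lowest DMSO library (-0.55, adjusted p 0.00628). NDUFB10, of the distal membrane arm (chr16:1959538-1961975, plus strand), was at 49.45, 48.22 and 44.58 CPM and then at 31.03, 32.93 and 38.92 CPM (-0.47, adjusted p 0.000801). With the GC content and length trends removed its fall in this line was -0.09 (adjusted p 0.450). NDUFA1, a small membrane arm subunit, was at 77.2, 83.26 and 78.46 CPM and then at 58.3, 61.29 and 56.9 CPM, without overlap (-0.44, adjusted p 2.27e-05). Without the third doxycycline library, which was high in the GC-rich subunits, 27 of the 37 subunits were lower (73%), as were 27.1% of all genes.

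Assembly factors in the sh4 line were mostly not called. Of the 7, only NDUFAF3 passed (1 lower, 0 higher), where 18% of all genes were lower and 22.9% higher. Their median log2 fold change was 0.09, and their summed level was 223.2 ± 7.64 CPM with DMSO and 233.2 ± 18.4 CPM with doxycycline. NDUFAF3 works with NDUFAF4 in building the ubiquinone-binding part of the complex (chr3:49020459-49023495, plus strand), and 14.4% of its exon sequence lies under an exon on the opposite strand. It was at 8.36, 6.233 and 6.34 CPM with DMSO and 2.314, 2.413 and 3.165 CPM with doxycycline. The groups did not overlap (log2 fold change -1.41, SE 0.188, adjusted p 1.96e-05, 0.376 times the DMSO level). Its partner NDUFAF4 was at 65.73, 72.68 and 71.04 CPM and then at 83.19, 78.02 and 71.26 CPM, and did not pass (0.15, adjusted p 0.0578). On log2 TPM as deposited NDUFAF3 was lower (-1.13) and 5 assembly factors were called higher, where 38.9% of all genes were. Whether the subunits and the assembly factors differed as classes was not tested.

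In the shAMB line the subunits split. With doxycycline 19 were lower (51.4%) and 8 higher, where 28.4% of all genes were called lower and 37.6% higher, and the median was -0.21 for the subunits and 0.10 over all genes. The split turned on the scaling. With limma on log2 TPM with library medians set equal, 23 subunits were lower and 6 higher, with a median of -0.36, and 42.1% of all genes were lower and 22.9% higher, with a median of -0.14. On the deposited log2 TPM, 12 subunits were lower and 12 higher (32.4% each), with a median of -0.02, and 18.6% of all genes were lower and 50.4% higher, with a median of 0.21. The subunit median lay below that of all genes on each of these scales, and whether the 2 medians differed was not tested. All doxycycline libraries lay below all DMSO libraries for 19 subunits, as for 31.2% of all genes. The summed subunit level was 3158 ± 104 CPM and 2753 ± 132 CPM.

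By module, 12 of 20 membrane arm subunits were lower and 3 higher, beside 3 lower and 3 higher of 7 core subunits and 3 lower and 2 higher of 9 accessory matrix arm subunits. NDUFAB1 was also lower (-0.35, adjusted p 0.000667). NDUFB10 fell the furthest, from 38.14, 33.84 and 39.95 CPM to 15.67, 16.19 and 15.39 CPM. The doxycycline libraries lay close together and far below those with DMSO (log2 fold change -1.24, SE 0.0964, adjusted p 2.06e-08, and -1.73 with GC content and length trends removed). NDUFB1, a small subunit of the same arm, went from 37.72, 40.93 and 39.58 CPM to 30.45, 27.46 and 23.42 CPM (-0.54, adjusted p 8.73e-05). NDUFA12, a matrix arm subunit related to the assembly factor NDUFAF2, went from 75.17, 87.76 and 84.05 CPM to 64.27, 60.43 and 53.64 CPM (-0.47, adjusted p 9.02e-05). Both pairs of groups were apart.

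NDUFV2, a core subunit with an iron-sulfur cluster near the flavin (chr18:9102630-9134345, plus strand), fell in shAMB and not past the threshold in sh4. It was at 142.7, 153.9 and 139.6 CPM with DMSO and 77.66, 72.78 and 65.87 CPM with doxycycline in shAMB (log2 fold change -1.01, SE 0.075, adjusted p 1.27e-08). In sh4 it was at 119, 126.8 and 128.5 CPM and then at 126.1, 115.4 and 102.1 CPM, which overlapped (-0.12, adjusted p 0.198). The difference between these effects passed the threshold (0.89, adjusted p 3.86e-06).

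NDUFA9 was the subunit called lower in sh4 and higher in shAMB. This accessory subunit sits where the matrix arm meets the membrane and binds NADPH (chr12:4649095-4694317, plus strand). In sh4 it was at 210.6, 219.1 and 211.9 CPM with DMSO and 180.8, 177.7 and 178.1 CPM with doxycycline, without overlap (-0.26, adjusted p 0.000102). In shAMB it was at 196, 208.3 and 216.1 CPM and then at 231.4, 236.7 and 215.5 CPM, where the lowest doxycycline library lay just under the highest DMSO library (0.14, adjusted p 0.00673). The difference was -0.40 (adjusted p 2.99e-05). The rise in shAMB was close to the median of all genes (0.10). It was 0.31 (adjusted p 1.67e-07) with GC content and length trends removed, -0.02 on log2 TPM with library medians set equal (limma adjusted p 0.773) and 0.32 on log2 TPM as deposited (adjusted p 1.44e-07), so that its call depends on the scaling.

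The other 7 subunits called higher in shAMB were NDUFS7, NDUFA11, NDUFA3, NDUFS8, NDUFV1, NDUFA7 and NDUFB4. NDUFS7 was at 0.7145, 0.4678 and 1.096 CPM with DMSO and 1.769, 3.094 and 3.599 CPM with doxycycline (1.89, SE 0.609, adjusted p 0.0125), from few counts. NDUFV1, which binds NADH and the flavin, was at 40.48, 31.11 and 42.33 CPM and then at 56.28, 65.19 and 75.42 CPM (0.79, adjusted p 0.00845). Neither overlapped. NDUFA11 rose by 1.49, NDUFA3 by 1.43 and NDUFS8, another core iron-sulfur subunit, by 0.98. Of the 8 higher subunits 6 had a GC content of at least 55%, and of the 8 NDUFA9 alone passed the test against the effect in the EV line (0.17, adjusted p 0.0245). That call was lost with RLE factors (another library scaling), DESeq2, no count filter, log2 TPM with library medians set equal, a replicate block, or any 1 of 6 of the 12 libraries left out. With GC content and length trends removed NDUFA9 was higher by 0.32 than in EV (adjusted p 1.9e-05), and 6 of 37 subunits and 4184 of 14905 genes were.

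In shAMB 5 of 7 assembly factors fell and 1 rose, with a median of -0.31, where 28.4% of all genes were lower and 37.6% higher. Removal of GC content and length trends left 4 lower and 2 higher, with a median of -0.12, where 32.5% of all genes were lower and 37.2% higher. On log2 TPM with library medians set equal 5 were lower and none higher, and as deposited 3 were lower and 2 higher. NDUFAF3 was at 4.829, 3.56 and 4.225 CPM with DMSO and 1.164, 1.416 and 1.707 CPM with doxycycline, which lay apart (log2 fold change -1.56, SE 0.2, adjusted p 5.69e-06, 0.340 times). NDUFAF4 went from 77.05, 81.4 and 78.99 CPM to 63.6, 61.13 and 56.46 CPM (-0.39, adjusted p 4.1e-05). NDUFAF6 (-0.37, adjusted p 0.000436), NDUFAF5, which hydroxylates NDUFS7 (-0.31, adjusted p 0.000903), and NDUFAF2, a chaperone of late assembly (-0.27, adjusted p 0.00231), were lower too. NDUFAF7, a methyltransferase that acts on the core of the complex, rose from 45.43, 44.8 and 45.91 CPM to 62.33, 58.27 and 53.8 CPM, without overlap (0.36, adjusted p 0.000694). On log2 TPM its difference was 0.17 with library medians set equal (limma adjusted p 0.182) and 0.51 as deposited (adjusted p 3.09e-05). NDUFAF1, a factor of membrane arm assembly, did not pass (0.12, adjusted p 0.188).

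**Figure D2:**
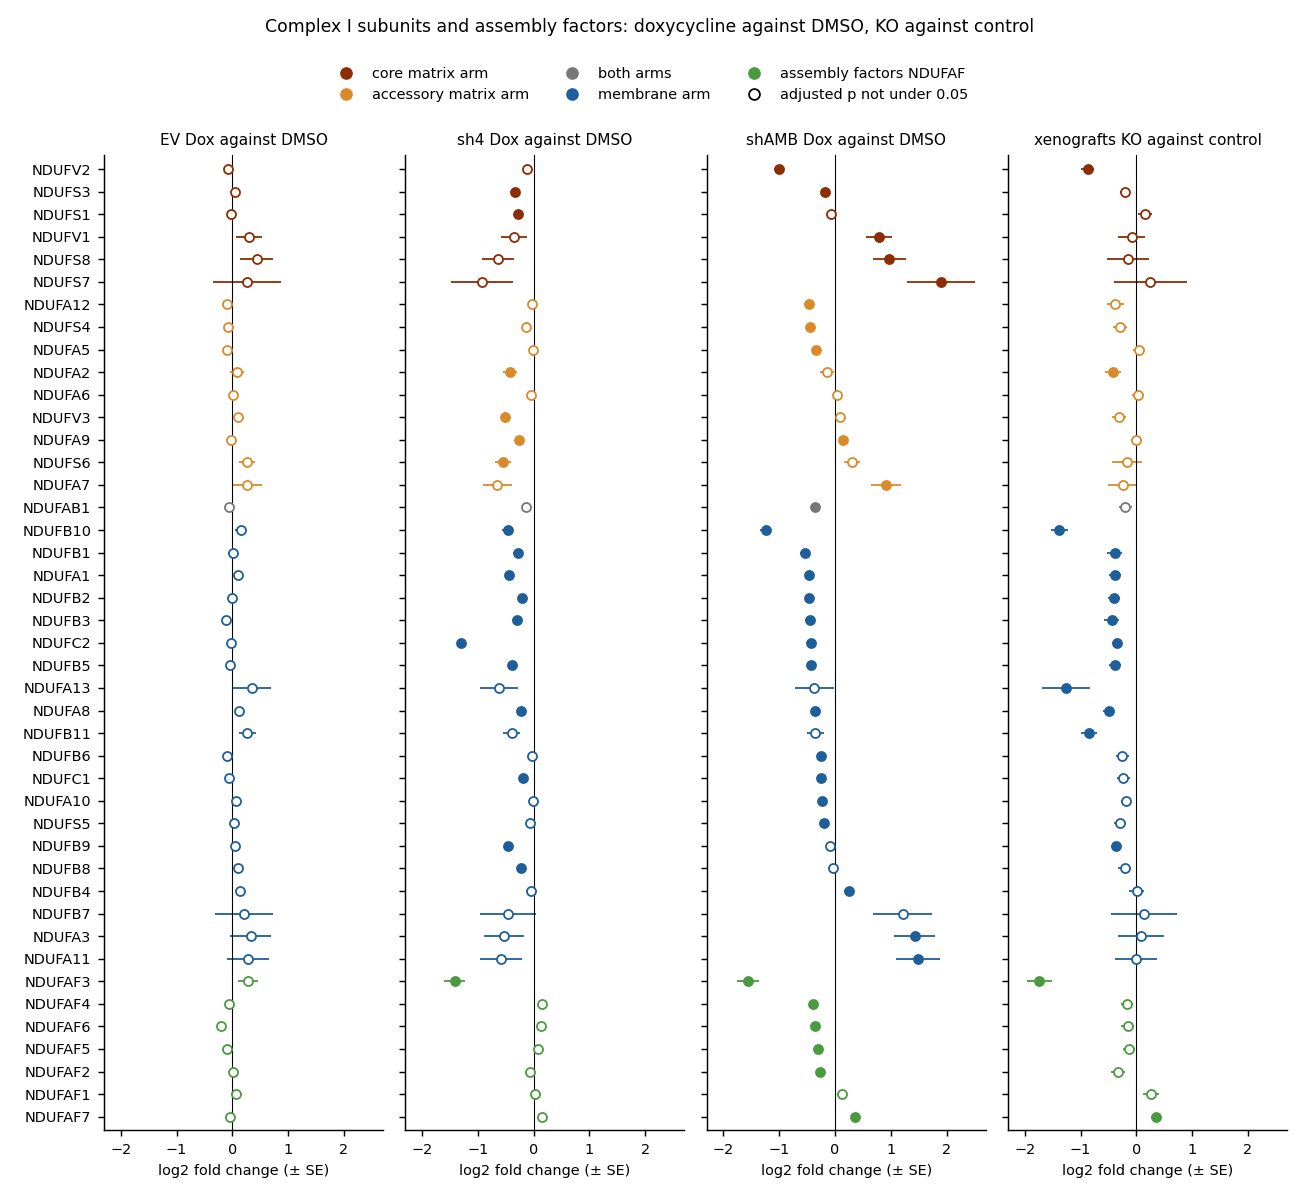
Log2 fold change with its SE of the subunits and assembly factors (1 subunit is not drawn) in 4 comparisons with TMM scaling, coloured by module, where open points did not pass the adjusted p threshold of 0.05. No point is filled for the EV line, filled subunits lie on the lower side in sh4 and in the tumours, and on both sides in shAMB, where 8 are higher.

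Tested against the EV line, the effect of doxycycline in sh4 was lower for 14 of 37 subunits and higher for 0. Of all 14905 genes 2197 were lower and 2659 higher, and 32.6% differed in either direction. Among assembly factors NDUFAF3 was lower (-1.69, adjusted p 0.00016) and NDUFAF6 higher (0.33, adjusted p 0.0249). The NDUFAF6 call was lost with no count filter, with a replicate block, and without EV DMSO replicate 1, EV doxycycline replicate 3, sh4 DMSO replicate 1 or sh4 doxycycline replicate 1. Against EV on log2 TPM as deposited, 7 subunits were lower and 3 higher in sh4, where 1018 of all genes were lower and 5225 higher. In shAMB the effect was lower for 17 subunits and higher for 1. Of all genes 3237 were lower and 3539 higher, and 45.5% differed in either direction. Among assembly factors NDUFAF2, NDUFAF3 and NDUFAF4 were lower and NDUFAF7 higher. Once GC content and length trends were removed, 14 subunits were lower and 6 higher, where 4267 of all genes were lower and 4184 higher. On log2 TPM as deposited 7 subunits were lower and 6 higher, where 1803 of all genes were lower and 5935 higher. Both tests use the same EV libraries. The 2 hairpin lines differed from each other in 18 subunits, 7 with a higher and 11 with a lower effect in sh4, where 60.9% of all genes differed. The split was 12 higher and 14 lower with GC content and length trends removed and also without the third sh4 doxycycline library, 11 and 12 with DESeq2, 12 and 10 on log2 TPM with library medians set equal, and 7 and 15 on log2 TPM as deposited. Of the assembly factors NDUFAF4, NDUFAF5 and NDUFAF6 had a higher effect in sh4 than in shAMB.

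Before induction, differences between the lines were tested with the DMSO libraries. Between the sh4 and EV lines with DMSO, 0 of 37 subunits were called by edgeR, with 10 at an unadjusted p under 0.05 and 1 by DESeq2. Of all 14905 genes 1.12% were called, and 4180 were at an unadjusted p under 0.05. Between the shAMB and EV lines 0 subunits were called by either tool, with 0 at an unadjusted p under 0.05. Of all genes 1.52% were called, and 1639 were at an unadjusted p under 0.05.

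In the tumours 13 of 37 subunits were lower with the KO label (35.1%) and 0 higher, where 19.9% of all genes were called lower and 21.2% higher. The median was -0.24 for the subunits and 0.02 over all 15960 genes. Of the 13, 11 belonged to the membrane arm (of 20), 1 to the core and 1 to the accessory matrix arm subunits. All KO libraries lay below all control libraries for 10 subunits, as for 18.4% of all genes. The summed subunit level was 2298 ± 261 CPM in control and 1975 ± 104 CPM in KO tumours (SD, n = 4 each), and these overlapped, with a lowest control tumour of 1913 CPM and a highest KO tumour of 2111 CPM. Without control replicate 2, 21 subunits were lower (56.8%, all genes 19.9%), and without KO replicate 2, 7 were (18.9%, all genes 14.9%). On log2 TPM with library medians set equal 5 subunits were lower (13.5%) and 0 higher by limma. Of all genes 12.8% were lower and 11.8% higher on that scale. The median was -0.19 for the subunits and 0.02 over all genes. With GC content and length trends removed 8 subunits were lower (21.6%), which is under the 27.5% of all genes, whereas in sh4 it was 43.2% against 26.2% and in shAMB 51.4% against 32.5%. In the tumours 0 subunits were then higher, where 24.9% of all genes were. The median was -0.15 for the subunits and -0.01 over all genes, and 31 of 37 subunits were below 0.

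NDUFB10 was again the subunit with the largest fall. Control tumours held 26.22, 30.23, 34.78 and 37.52 CPM and KO tumours 13.12, 12.03, 14.38 and 9.82 CPM. The groups did not overlap (log2 fold change -1.38, SE 0.15, adjusted p 6.58e-05, and -1.30 with trends removed). NDUFV2 was at 113.3, 78.3, 107.3 and 109.4 CPM in controls and at 52.27, 54.65, 60.31 and 56.33 CPM in KO tumours, also apart (-0.87, SE 0.117, adjusted p 0.000228). NDUFB11, a membrane arm subunit encoded on the X chromosome, was at 51.21, 55.61, 65.74 and 58.98 CPM and then at 38.29, 26.9, 37.41 and 25.98 CPM, again apart (-0.85, adjusted p 0.000954). NDUFA13, known also as GRIM-19, ranged widely, from 11.95, 24.11, 40.62 and 34.47 CPM to 19.68, 10.07, 12.3 and 4.362 CPM, with overlap (-1.26, adjusted p 0.0374). Of the core subunits other than NDUFV2 none passed, among them NDUFS1 at 0.16 (adjusted p 0.324), NDUFS3 at -0.20 (adjusted p 0.091), NDUFV1 at -0.08 (adjusted p 0.808), NDUFS7 at 0.25 (adjusted p 0.79) and NDUFS8 at -0.15 (adjusted p 0.787).

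NDUFC2 was at 63.78, 52.45, 60.8 and 62.49 CPM in controls and at 45.52, 47.67, 51.04 and 43.82 CPM in KO tumours, just without overlap (-0.35, adjusted p 0.0109). Among the assembly factors NDUFAF3 was at 5.505, 6.999, 8.65 and 7.272 CPM and then at 2.597, 1.934, 2.522 and 1.461 CPM. The groups were well apart (log2 fold change -1.74, SE 0.221, adjusted p 0.000164). With GC content and length trends removed its fall was -1.03 in sh4, -2.19 in shAMB and -1.75 in the tumours, and the difference between the hairpin lines, which did not pass before (0.15, adjusted p 0.655), then did (1.16, adjusted p 7.14e-06). NDUFAF7 was at 37.98, 35.51, 32.74 and 35.84 CPM in controls and at 41.53, 49.74, 43.43 and 46.39 CPM in KO tumours, every one above every control (0.35, adjusted p 0.0106). These were the only 2 of the 7 assembly factors that passed, 1 in each direction, and the summed level of the 7 was 176.2 ± 13.8 and 171.1 ± 11.1 CPM.

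**Figure D3:**
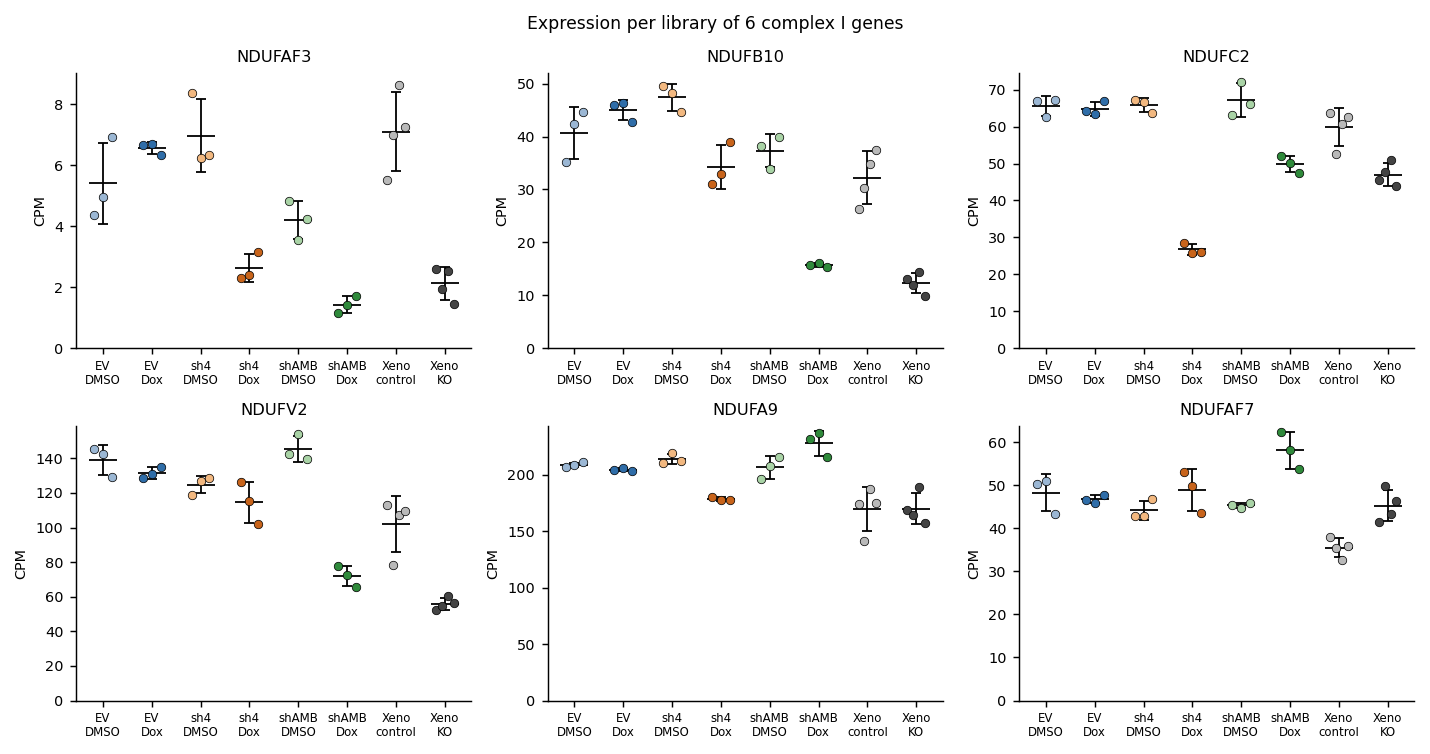
CPM of NDUFAF3, NDUFB10, NDUFC2, NDUFV2, NDUFA9 and NDUFAF7 in each library of the 8 groups, with the mean and SD as bars. NDUFAF3 is lower in every doxycycline library of both hairpin lines and in every KO tumour than in the group beside it, NDUFC2 falls to 25.71 to 28.57 CPM in sh4, and NDUFV2 separates in shAMB and in the tumours.

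The calls were then set side by side. The share of all genes lower in several comparisons at once was not counted, so the overlaps describe these genes alone. The tumours and the shAMB line may also share a hairpin. Of the 37 subunits 11 were lower in both hairpin lines (11 of the 18 lower in sh4 and of the 19 lower in shAMB), among them NDUFC1 and NDUFS3. Of these, 8 were lower in the tumours as well, namely NDUFA1, NDUFA8, NDUFB1, NDUFB2, NDUFB3, NDUFB5, NDUFB10 and NDUFC2, and the 8 are membrane arm subunits. NDUFA8, on the intermembrane space side, shows their size, with -0.22 in sh4, -0.36 in shAMB and -0.50 in the tumours. NDUFB5 had -0.40, -0.43 and -0.38, NDUFB3 had -0.30, -0.45 and -0.44, and NDUFB2 had -0.20, -0.46 and -0.40. With GC content and length trends removed 3 subunits were lower in all of these comparisons, of which NDUFB5 and NDUFC2 were among the 8. On log2 TPM with library medians set equal 3 were, of which NDUFA8 and NDUFB10 were among the 8. On log2 TPM as deposited, which was run for cell culture alone, 4 subunits were lower in both hairpin lines (NDUFA1, NDUFB5, NDUFB10 and NDUFC2), all of them among the 11. NDUFAF3 was the assembly factor lower in all of them, and NDUFA6 and NDUFB7 were called in none.

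The fold changes moved with GC content, in a way that differed between comparisons. Over the 37 subunits Spearman's rho of the log2 fold change with GC content was 0.85 for EV, -0.65 for sh4, 0.51 for shAMB and 0.13 for the tumours, which describes genes that share libraries. The 11 GC-rich subunits had a median of -0.55 in sh4 where all 4471 GC-rich genes had -0.21, and of 0.91 in shAMB where all had 0.65. In shAMB 54.5% of the GC-rich subunits and 60.1% of all GC-rich genes were higher. Among genes under 55% GC, 61.5% of the 26 subunits and 18.9% of all genes were lower in sh4, 69.2% and 38.2% in shAMB, and 38.5% and 23.5% in the tumours. With GC content and length trends removed the GC-rich subunits had a median of -0.20 in sh4 and 0.17 in shAMB, and under 55% GC 50% of the subunits and 28.5% of all genes were lower in sh4, 61.5% and 32.6% in shAMB, and 19.2% and 28% in the tumours. Subunits were also short, with a median length of 786 bases where that of the genes tested in cell culture was 2948. Their median GC content was 48.9%, against 49.5%. Trends of GC content and of length were removed together, so that their parts cannot be told apart. The part of GC content, of length, or of what moves with them, in the fold changes of single subunits was not tested.

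**Figure D4:**
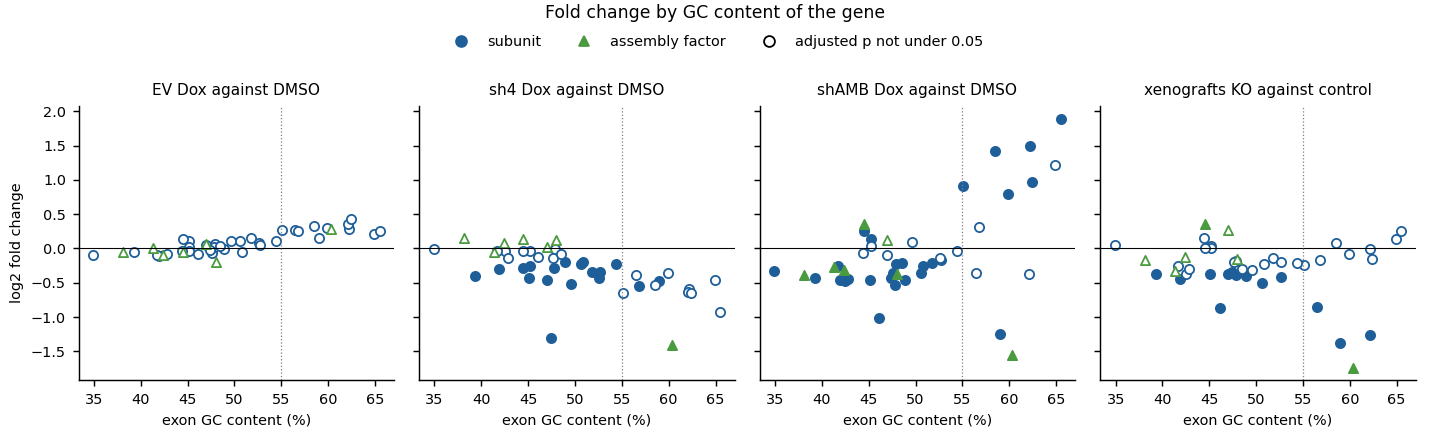
Log2 fold change of each subunit and assembly factor against the GC content of its exons (%), in 4 comparisons, with open symbols for genes that did not pass the threshold and a dotted line at 55%. Subunits to the right of the line lie higher in shAMB (median 0.91) and lower in sh4 (median -0.55).

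**Figure D5:**
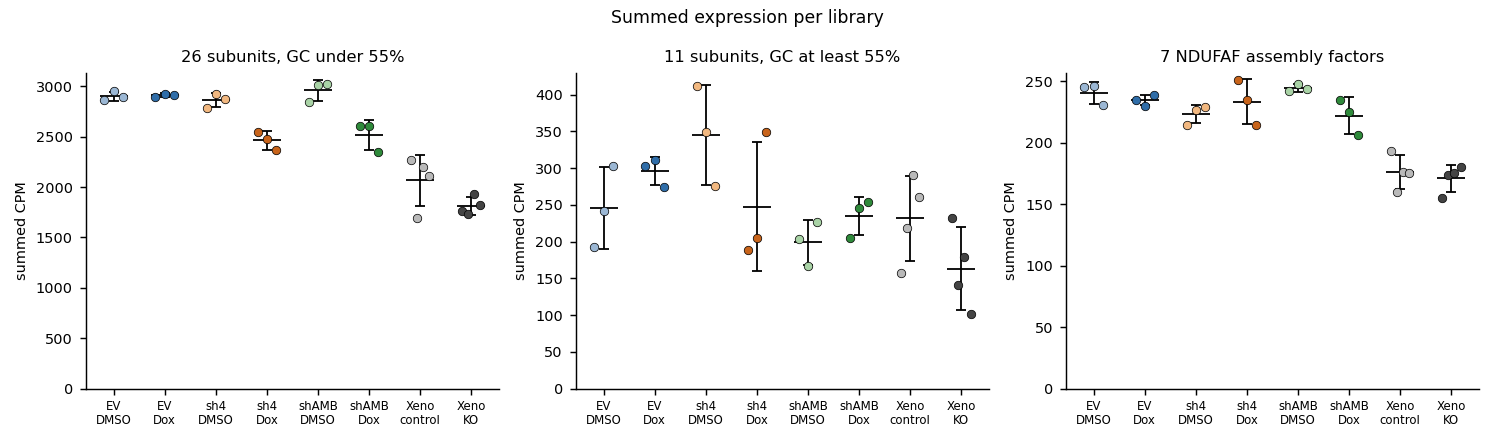
Summed CPM per library of the 26 subunits under 55% GC, the 11 subunits of at least 55% GC and the 7 assembly factors, with the mean and SD of each group. The sum of the 26 is lower in every doxycycline library of both hairpin lines than with DMSO, whereas the GC-rich sum of sh4 with doxycycline spreads from 188.9 to 348.6 CPM and the groups of the assembly factors overlap in sh4 and in the tumours.

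NDUFA4, the complex IV subunit, was lower in shAMB (-0.27, adjusted p 0.00186) and did not pass in sh4 (-0.14, adjusted p 0.115) or in the tumours (-0.25, adjusted p 0.119). NDUFA4L2 was at 0.8535, 0.745, 0.6805 and 0.3009 CPM in control tumours and at 3.172, 0.1231, 0.1401 and 0.2114 CPM in KO tumours. One KO tumour thus lay above the rest and the groups overlapped (0.51, adjusted p 0.694). The pseudogene NDUFAF4P1 did not pass there either (-0.21, adjusted p 0.577).

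Assembly factors with other names did not move as a block. Of 13 listed, 3 were lower and 1 higher in sh4, 6 lower and 1 higher in shAMB, and 5 lower and 0 higher in the tumours. Over all genes 18% were lower and 22.9% higher in sh4, 28.4% and 37.6% in shAMB, and 19.9% and 21.2% in the tumours, and the counts of the next lists are to be read against the same shares. TIMMDC1, an early assembly factor of the inner membrane, was at 78.51, 78.58 and 75.64 CPM with DMSO and 57, 55.6 and 56.61 CPM with doxycycline in sh4 (-0.46, adjusted p 3.86e-07), and fell by 0.36 in shAMB and 0.43 in the tumours on the log2 scale. TMEM261, known as DMAC1 and needed for the distal membrane arm to which NDUFB10 belongs, went from 43.32, 43.87 and 43.11 CPM to 26.51, 27.32 and 26.58 CPM in shAMB (-0.70, adjusted p 5.59e-08). In tumours it was at 47.54, 40.32, 48.64 and 46.11 CPM in controls and at 27.03, 24.14, 26.03 and 24.37 CPM in KO (-0.85, adjusted p 7.08e-05). Neither overlapped. NUBPL, which delivers iron-sulfur clusters to the complex, was higher in sh4 (0.26, adjusted p 0.0136), and ECSIT, a partner of NDUFAF1, was higher in shAMB (0.79, adjusted p 0.0148). C17orf89, now named NDUFAF8, a partner of NDUFAF5, was lower in sh4 (-0.46, adjusted p 0.00106) and did not pass in shAMB (0.02) or the tumours (-0.22).

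Among transcriptional regulators of respiratory genes the calls differed between comparisons. Of 9 listed, 5 were lower and 1 higher in sh4, 2 lower and 3 higher in shAMB, and 1 lower and 1 higher in the tumours, with the shares of all genes as above (22.9% higher and 18% lower in sh4). PPARGC1A, the co-activator PGC-1alpha, was at 18.97, 19.78 and 21.42 CPM with DMSO and 11.97, 12.44 and 10.53 CPM with doxycycline in sh4 (-0.78, adjusted p 5.09e-07). In shAMB it rose from 21.53, 23 and 24.31 CPM to 28.9, 28.65 and 27.89 CPM (0.31, adjusted p 0.00139), and the effects differed between the lines (-1.09, adjusted p 3.57e-07). In the tumours it was also higher with the KO label (0.54, adjusted p 0.00919). GABPA, the DNA-binding subunit of GABP, was higher in sh4 (0.34, adjusted p 0.0013) and lower in shAMB (-0.37, adjusted p 0.000315), with a difference between the lines of 0.70 (adjusted p 2.64e-05), and its partner GABPB1 was lower in shAMB (-0.50, adjusted p 1.94e-05) and in the tumours (-0.47, adjusted p 0.00613). PPRC1, a co-activator related to PGC-1alpha, was higher in shAMB (0.38, adjusted p 0.0353).

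The subunits of complexes II to V give the setting. Of 38 listed, 31 were lower and 0 higher in sh4 (median log2 fold change -0.31), 24 lower and 4 higher in shAMB (-0.20), and 18 lower and 0 higher in the tumours (-0.36). Of all genes 18%, 28.4% and 19.9% were lower in these comparisons, with medians of -0.0046, 0.10 and 0.02. On log2 TPM as deposited 15 were lower and 1 higher in sh4 (-0.13), and 14 lower and 10 higher in shAMB (-0.01). Of all genes 9.3% were lower and 38.9% higher in sh4 on that scale, and 18.6% and 50.4% in shAMB. The complex I subunits had medians of -0.34, -0.21 and -0.24. The summed level of the 38 subunits of complexes II to V was 7527 and 6024 CPM in sh4, 7502 and 6170 CPM in shAMB, and 5651 and 4556 CPM in the tumours, each as the mean of the control and then the treated group. The 11 neuroblastoma markers moved as well, with 5 higher and 4 lower in sh4, 6 higher and 2 lower in shAMB and 5 higher and 0 lower in the tumours, and their part in the complex I results was not tested.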

How the data were processed

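Groups came from the sample labels. Columns marked Neg were taken as DMSO and those marked Pos as doxycycline, by their names. The labels give a stranded total RNA kit and also polyA RNA. Per the labels STAR, SAMtools, RSEM and the build hg38 were used, and versions and the use of strand are not given in the sources used here. The authors deposited RSEM expected counts, which need not be whole, with gene lengths in bases, and TPM values. Expected counts were rounded, filtered with filterByExpr, scaled by TMM (factors 0.974 to 1.07 in cell culture, 0.936 to 1.09 in tumours) and tested with the two-sided quasi-likelihood F test of edgeR 4.0.16 in R 4.3.3, and p-values were adjusted by Benjamini-Hochberg over every tested gene. One model held the means of the 6 cell culture groups (18 libraries) and another those of the tumours. The test code was also run on simulated counts with independent libraries and no GC content or length trends. That run says nothing about such trends.

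Small RNA genes took 74.4% to 87.0% of the TPM of the tumours, so TPM levels are given for cell culture. Alternatives were DESeq2 1.42.0, RLE factors, other count filters, removal of GC content and length trends, omission of small RNA genes, limma 3.58.1 on log2(TPM + 1) with the medians of the libraries over tested genes set equal, a replicate block and each library left out. The same limma test on log2(TPM + 1) without setting medians equal was added for cell culture after seeing the data. GC content came from GENCODE exons. Values of 1 core subunit by itself are not reported here. The members and gene lists were chosen with earlier results of these data known. Named with values were the NDUFAF genes, the core subunits, NDUFA4 and NDUFA4L2, the 4 largest falls and rises among called subunits in a comparison, subunits called in opposite directions in the hairpin lines, the 3 highest and lowest in TPM, and the largest rise and fall of each list. NDUFA8, NDUFB3, NDUFB5, NDUFAB1, TIMMDC1 outside sh4, GABPA in shAMB and C17orf89 were named after their values were seen.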

Additional observations from a re-analysis of the deposited data

Results flagged for a closer look

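In 66 groups of 4 tumours, 3 members had a library far from the others by Dixon's criterion, which chance flags in about 1 in 20 groups. NDUFA12 (35.06 CPM) and NDUFV2 (78.3 CPM) were low in control replicate 2, which also had the highest small RNA share (18.3% of counts), whose part was not tested. NDUFA4L2 was high in KO replicate 1 (3.172 CPM).

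The effect of doxycycline differed between the hairpin lines, by the edgeR test of the difference itself, for 16 of the 31 members named by the rule above. NDUFA4L2, among the 31, was not tested in cell culture. Of all genes 60.9% differed. Some members were named for large changes or opposite calls in these same lines, so that the count of 16 is no separate evidence of a difference. The effect was lower in sh4 than in shAMB on the log2 scale for NDUFS7 (-2.82), NDUFA11 (-2.07), NDUFA3 (-1.96), NDUFS8 (-1.62), NDUFV1 (-1.14), NDUFC2 (-0.87), NDUFS6 (-0.86), NDUFV3 (-0.61) and NDUFA9 (-0.40). It was higher in sh4 for NDUFV2 (0.89), NDUFB10 (0.78), NDUFAF4 (0.54), NDUFAF6 (0.49), NDUFA12 (0.44), NDUFAF5 (0.39) and NDUFB2 (0.26).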

How the results depend on the processing

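Of 121 values of single named members, 71 kept their direction and their side of the threshold under every alternative run, and 4 reversed: NDUFB2 in sh4 (0.0131) and NDUFAF2 in shAMB (0.0367) with GC content and length trends removed, NDUFA9 in shAMB on log2 TPM with library medians set equal (-0.0218), and NDUFS3 in shAMB on log2 TPM as deposited (0.013), an alternative chosen after seeing the data. With those trends removed the subunit median was 0.0096 in EV, -0.15 in sh4 and -0.14 in shAMB, 2 assembly factors changed in sh4, 1 subunit differed between sh4 and EV with DMSO (also 1 with DESeq2) and 8 changed in the tumours. On log2 TPM as deposited the subunit median was -0.16 in sh4 and -0.0186 in shAMB, 6 assembly factors changed in sh4 and 1 subunit differed between sh4 and EV with DMSO. With library medians set equal the medians were 0.0062 in EV, -0.29 in sh4 and -0.36 in shAMB, and 5 subunits and 1 assembly factor changed in the tumours. These 5 subunits were lower (13.5%), as were 12.8% of all genes. The shAMB median was -0.29 with RLE factors and with DESeq2. The cause of these changes was not tested.

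Leaving out 1 library at a time, the number of subunits changed was 15 to 27 in sh4 (27 without doxycycline replicate 3), 25 to 28 in shAMB, 7 to 21 in the tumours (21 without control replicate 2, 7 without KO replicate 2), 11 to 23 for sh4 against EV (23 without sh4 doxycycline replicate 3), 13 to 17 for shAMB against EV, 17 to 26 between the hairpin lines and 0 in EV and between lines with DMSO. These counts are to be read against all genes. Without shAMB doxycycline replicate 3, 12 subunits were lower and 1 higher for shAMB against EV. Of 15022 genes 2948 were then lower and 3133 higher. Without sh4 DMSO replicate 1, 11 subunits were lower and 6 higher between the hairpin lines. Of 15080 genes 4157 were then lower and 3916 higher. Assembly factors changed were 1 to 3 in sh4, 6 in shAMB, 2 to 3 in the tumours and 0 in EV. Subunit medians ran from 0.02 to 0.10 in EV, -0.34 to -0.27 in sh4, -0.24 to -0.18 in shAMB and -0.36 to -0.19 in the tumours.

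Same-numbered libraries did not deviate together (correlations of -0.603 to 0.13 between cultures, -0.497 to 0.374 between tumours), so that the numbers are not taken to pair samples. With a replicate block within lines, 8 subunits in place of 14 differed for sh4 against EV and 11 in place of 18 for shAMB against EV, 13 in place of 18 changed in sh4 and 10 in place of 13 in the tumours. The 8, the 11 and the 13 were all lower. With that block, of all 14905 genes 1143 were lower and 1570 higher for sh4 against EV. For shAMB against EV 2556 were lower and 2498 higher, and in sh4 1844 were lower and 2522 higher. Among members tested in cell culture, NDUFS7, NDUFB7 and NDUFAF3 had the fewest counts, so that depth limits them most. NDUFA4L2 and NDUFAF4P1 had fewer still and were not tested there.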
